A study of Mus musculus with 50 samples.

Results

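The genes described here are 7 subunit genes of the GABA-A receptor: *Gabra2*, *Gabra3*, *Gabra4* and *Gabra5*, which encode alpha subunits, *Gabrg1* and *Gabrg3*, which encode gamma subunits, and *Gabrd*, which encodes the delta subunit. They were taken by symbol from a list of names. The rule used none of their values, but the list was drawn up with earlier results of these data known. All 7, of 24552 genes in the larger table, were found in both tables of raw counts. All 7 passed the filter on low counts in every model. The gene symbol in each table was the only identifier, and gene models were taken from GENCODE vM21 (GRCm38).

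The libraries came from the nucleus accumbens (NAc) of C57BL/6 mice, aged 8 to 12 weeks where the labels give an age, that carried RiboTag (RT), a floxed *Rpl22* allele that adds an HA tag to a ribosomal protein in cells with Cre. Cre was driven by a BAC transgene with the *Drd1* (RT; D1-Cre) or *Drd2* (RT; D2-Cre) promoter, so that pulling down HA (an IP) enriched ribosome-bound mRNA from medium spiny neurons (MSNs) of the D1 or the D2 type, and the input was RNA of the same homogenate before the pull-down. Each library pooled 2 mice, either controls that were never defeated (Con) or mice exposed to an aggressor for up to 10 days and then sorted by social interaction into resilient (Res) and susceptible (Sus). There were 4 D1 Con, 4 D1 Res, 5 D1 Sus, 5 D2 Con, 5 D2 Res and 5 D2 Sus IPs, and 3 inputs for each line and stress group. A further 4 undefeated D1 IPs carried the genotype RT; Sirt1-floxed; D1-Cre and are labelled Sirt1-KO; every IP and input above therefore shared the RT allele and a Cre transgene.

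GABA-A receptors are pentameric chloride channels, usually with a pair of alpha, a pair of beta and a gamma or delta subunit, and they carry most fast inhibition in the brain. Receptors with a gamma subunit are mostly synaptic, whereas those with delta lie outside synapses and respond to low ambient GABA. The alpha subunit sets much of the pharmacology: alpha-2, alpha-3 and alpha-5 receptors bind classical benzodiazepines, and alpha-4 receptors do not. MSNs are themselves GABAergic and inhibit each other, and in the striatum alpha-4 and delta are known partners in tonic inhibition.

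The property that divides the 4 alpha genes can be read in their coding sequence. The stretches below are shown because they hold the codon for a histidine in the benzodiazepine-sensitive subunits that is an arginine in *Gabra4*; the capitals mark that codon. Each is 5′ to 3′ on the coding strand, from the GENCODE vM21 transcripts.
Gabra2: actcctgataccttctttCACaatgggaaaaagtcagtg
Gabra3: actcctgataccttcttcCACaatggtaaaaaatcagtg
Gabra4: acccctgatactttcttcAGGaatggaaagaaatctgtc
Gabra5: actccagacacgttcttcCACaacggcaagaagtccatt

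The *Gabra2* stretch lies in exon 5 of 10 at chr5:71014487-71014525 and its histidine is residue 129. The *Gabra3* stretch lies in exon 5 of 10 at chrX:72501150-72501188, with histidine at residue 195. The *Gabra5* stretch lies in exon 5 of 10 at chr7:57488873-57488911, with histidine at residue 136. The *Gabra4* stretch lies in exon 4 of 9 at chr5:71641134-71641172, where residue 161 is arginine. All 4 are on the minus strand. Exon and residue numbers are those of the transcript with the longest reading frame of each gene, so other transcripts may number them differently.

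The 7 genes sit on the minus strand of 4 chromosomes. *Gabrg1* (chr5:70751047-70842617), *Gabra2* (chr5:70957597-71095849) and *Gabra4* (chr5:71569749-71658308) lie in a cluster, and *Gabrg3* (chr7:56716465-57387188) and *Gabra5* (chr7:57407672-57510059) in a second. *Gabra3* is at chrX:72432681-72656848 and *Gabrd* at chr4:155384980-155398112. Exons of *Gabra4* overlap exons of *Gabrb1*, and exons of *Gabra5* overlap those of an antisense gene, *Gm9962*, each on the opposite strand. The strand setting of the counting is not given in the sources used here, so part of the reads of *Gabra4* and *Gabra5* may belong to those neighbours.

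The IPs held 21591075 to 31009626 counts on genes and the inputs 18384265 to 28179940. *Drd1* was at 290 to 405 CPM (counts scaled by library size after TMM normalization) in D1 IPs and 110 to 172 in D2 IPs, and *Drd2* at 80.0 to 125 and 299 to 390, so these marker genes followed the labels of the lines. The 4 D2-MSN markers summed to 2061 to 3471 CPM in D1 IPs and 776 to 1324 in inputs, so D1 IPs too held more of them than the whole tissue. Other cells' markers also differed: the summed CPM of 5 cortical excitatory neuron markers was 382 to 1353 in D1 IPs and 21.3 to 293 in D2 IPs, all 5 called higher in D1, and 5 of 6 cholinergic interneuron markers were called lower in D1, with *Chat* at 1.58 to 6.70 CPM in D1 IPs and 16.8 to 34.4 in D2 IPs. The 5 parvalbumin interneuron markers summed to 128 to 163 in D1 IPs and 60.1 to 106 in D2 IPs, 4 of 5 called higher. Of the IPs, the 4 that carry the replicate number 5 (D1 Sus 5, D2 Con 5, D2 Res 5 and D2 Sus 5) stood apart in several of the genes below, and values without them are given beside the results that they change.

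In CPM, which is not corrected for gene length, the 28 IPs and 18 inputs held the genes at clearly different levels. Counts per library ran from 201 to 585 for *Gabrg3* and from 2339 to 6530 for *Gabra4*, with the other 5 genes between 464 and 5234. Per kilobase of exon, the order of mean levels over the IPs was *Gabrd* at 80.2 CPM per kilobase, *Gabra4* at 46.5, *Gabra3* at 29.9, *Gabra2* at 22.4, *Gabra5* at 15.1, *Gabrg1* at 10.1 and *Gabrg3* at 1.31. Each gene exceeded the next in 28 of 28 IPs, except *Gabra2* over *Gabra5*, which held in 27 of 28. The delta subunit was thus the most abundant of the 7 per length and gamma-3 the least.

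Part of this order rested on the gene models. With exon lengths from the comprehensive annotation instead of the basic one, *Gabra4* exceeded *Gabra3* in 18 of 28 IPs and *Gabra2* exceeded *Gabra5* in 21 of 28. In the inputs, with basic lengths, *Gabrd* exceeded *Gabra4* in 11 of 18 libraries and *Gabra2* exceeded *Gabra5* in only 3 of 18, so these neighbours were not separated there in the same way.

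The comparison of D1 with D2 IPs asked which subunits differ between the MSN types. Averaged over the 3 stress groups, *Gabra5* and *Gabrg1* were higher in D1 IPs, *Gabrg3*, *Gabra4* and *Gabrd* were lower, and *Gabra2* and *Gabra3* did not pass the test. At an adjusted p under 0.05, 5 of 7 genes differed where 40.8% of all 14224 tested genes did, 2 of them higher (19.6% of all genes) and 3 lower (21.3%). With the added limit of a fold over 1.5, 1 of 7 was called, *Gabrg3*, against 7.66% of all genes. The median log2 fold change of the 7 was -0.07, beside -0.02 for all genes.

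*Gabra5*, whose alpha-5 subunit is best known from extrasynaptic receptors of the hippocampus, separated the lines fully. Its CPM was 51.1, 54.3, 54.7 and 53.1 in D1 Con, 48.3, 50.2, 50.4 and 51.6 in D1 Res, and 52.3, 47.5, 61.5, 51.1 and 49.7 in D1 Sus. In D2 IPs it was 34.9, 35.8, 44.5, 36.4 and 32.9 in Con, 46.3, 38.5, 40.4, 40.5 and 34.9 in Res, and 45.6, 37.8, 38.0, 44.9 and 33.6 in Sus. The lowest D1 IP lay above the highest D2 IP, which held for 2.82% of all genes. The log2 difference was 0.40 (SE 0.05, 95% interval 0.30 to 0.50, adjusted p = 2.05e-07), and 0.36 without the libraries numbered 5.

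The same direction was seen in each stress group tested apart. *Gabra5* was higher in D1 by 0.52 on the log2 scale in Con (adjusted p = 0.000139), by 0.31 in Res (adjusted p = 0.0142) and by 0.37 in Sus (adjusted p = 0.0018). In the D1 IP with the lowest *Slc17a7*, a cortical excitatory marker at 317 CPM in D1 Con 1, *Gabra5* was at 51.1 CPM, and in the D1 IP with the highest, D1 Sus 3 at 1132, it was at 61.5. In the D2 IPs with the lowest and highest *Slc17a7* (D2 Sus 1 at 13.9 and D2 Sus 5 at 245) *Gabra5* was at 45.6 and 33.6 CPM. *Gabra5* was thus higher in the library with more *Slc17a7* in the D1 pair and lower in the D2 pair, of which D2 Sus 5 is one of the libraries numbered 5. The D2 pair did not stand for the other D2 IPs. Next below D2 Sus 5 in *Slc17a7* were D2 Con 3 (216), D2 Res 1 (206) and D2 Sus 4 (197), with *Gabra5* at 44.5, 46.3 and 44.9. Next above D2 Sus 1 were D2 Res 4 (29.3), D2 Res 5 (60.3) and D2 Con 4 (70.8), with *Gabra5* at 40.5, 34.9 and 36.4. The part of cortical excitatory cells in the *Gabra5* difference was not tested.

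*Gabrg3*, a scarce gamma subunit, went the other way. It was at 11.1, 11.0, 7.73 and 11.3 CPM in D1 Con, at 8.92, 13.4, 7.72 and 14.7 in D1 Res, and at 12.4, 12.7, 8.65, 11.9 and 16.8 in D1 Sus. In D2 it was at 10.8, 14.7, 18.3, 20.5 and 23.8 in Con, at 9.86, 15.7, 15.8, 15.6 and 22.5 in Res, and at 16.8, 15.2, 16.5, 19.2 and 25.1 in Sus. The lines overlapped, with 9 of 15 D2 IPs inside the range of the D1 IPs, and the library numbered 5 was the highest of each of the 4 groups that have one.

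*Gabrg3* was lower in D1 by a log2 difference of -0.63 (SE 0.13, 95% interval -0.89 to -0.37, adjusted p = 0.000214), which is 1.55-fold. Without the libraries numbered 5 the difference was -0.53 (adjusted p = 0.000538), under 1.5-fold, so that 0 of 7 genes were then called by fold, against 7.35% of all genes. By stress group, the difference was -0.79 in Con (adjusted p = 0.0182), -0.52 in Res (adjusted p = 0.118) and -0.59 in Sus (adjusted p = 0.0503), where it passed without the libraries numbered 5, at -0.58 (adjusted p = 0.0444). Con was the only stress group of the 3 in which it was called, and there it was 1 of 7 called by fold, against 4.98% of all genes.

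*Gabrg1*, which encodes a gamma subunit of limited distribution in the brain, was higher in D1 IPs. Its CPM was 47.2, 48.0, 62.1 and 65.9 in D1 Con, 65.7, 50.1, 51.2 and 60.6 in D1 Res, and 53.0, 61.7, 54.6, 52.9 and 38.0 in D1 Sus. It was 38.0, 34.3, 46.5, 42.3 and 24.3 in D2 Con, 44.8, 41.4, 43.3, 54.2 and 37.6 in D2 Res, and 66.5, 44.9, 45.8, 48.9 and 19.9 in D2 Sus. The ranges overlapped, with D2 Sus 1 the highest of all IPs, and the lowest library of each group that has a number 5 was that library.

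The log2 difference of *Gabrg1* was 0.37 (SE 0.12, adjusted p = 0.0111), and 0.29 (adjusted p = 0.00287) without the libraries numbered 5. In none of the 3 stress groups alone did it pass an adjusted p of 0.05: the differences were 0.57 in Con (adjusted p = 0.0578), 0.35 in Res (adjusted p = 0.251) and 0.19 in Sus (adjusted p = 0.562). In Con it passed once the libraries numbered 5 were left out, at 0.46 (adjusted p = 0.0172).

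*Gabra4*, the benzodiazepine-insensitive alpha subunit, was lower in D1 IPs. It was at 202, 187, 201 and 180 CPM in D1 Con, at 161, 184, 181 and 195 in D1 Res, and at 180, 176, 183, 172 and 161 in D1 Sus. In D2 it was at 181, 207, 230, 234 and 179 in Con, at 230, 209, 240, 224 and 161 in Res, and at 197, 189, 219, 226 and 160 in Sus. All D2 libraries numbered 5 were the lowest of their group, and without them the D2 IPs lay at 181 or above, still within reach of the highest D1 IPs.

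The log2 difference of *Gabra4* was -0.19 (SE 0.05, adjusted p = 0.00705) and became -0.24 (adjusted p = 3.48e-05) without the libraries numbered 5. With all libraries no single stress group passed the test. Without the libraries numbered 5, Res did at -0.33 (adjusted p = 0.00142) and Sus at -0.23 (adjusted p = 0.0253), but Con did not at -0.15 (adjusted p = 0.161).

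*Gabrd*, the partner of alpha-4 in tonic inhibition, was lower in D1 IPs too. It was at 187, 142, 146 and 142 CPM in D1 Con, at 141, 142, 157 and 151 in D1 Res, and at 139, 135, 130, 133 and 134 in D1 Sus. In D2 it was at 184, 183, 167, 170 and 176 in Con, at 155, 147, 163, 164 and 142 in Res, and at 136, 149, 173, 171 and 153 in Sus. In Con the D1 libraries other than D1 Con 1 lay below every D2 library, while D1 Con 1 lay above them all.

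The log2 difference of *Gabrd* was -0.17 (SE 0.04, adjusted p = 0.00114), or -0.18 without the libraries numbered 5. By stress group it was -0.20 in Con (adjusted p = 0.057), -0.07 in Res (adjusted p = 0.536) and -0.24 in Sus (adjusted p = 0.0123). Sus was the only stress group in which *Gabrd* passed, with 2 of 7 genes past an adjusted p of 0.05 there against 17.6% of all genes, and 0 of 7 by fold against 5.55%. In Res 1 of 7 passed, *Gabra5*, against 17.5%, and 0 of 7 by fold against 5.52%. In Con 2 of 7 passed, *Gabra5* and *Gabrg3*, against 14.0%. Without the libraries numbered 5, 4 of 7 passed in Sus, 2 in Res and 3 in Con. The share of all genes at that rule without those libraries is not given here, so these counts are not set against all genes.

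*Gabra2* and *Gabra3*, subunits of synaptic receptors, overlapped between the lines and did not pass. *Gabra2* lay at 118 to 137 CPM in D1 and at 124 to 167 in D2, a log2 difference of -0.07 (95% interval -0.14 to 0.00, adjusted p = 0.0954). *Gabra3* lay at 92.6 to 130 CPM in D1 and at 104 to 134 in D2, a difference of -0.02 (95% interval -0.11 to 0.07, adjusted p = 0.754). The intervals leave room for differences of no more than 0.14 on the log2 scale in either gene.

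**Figure D1:**
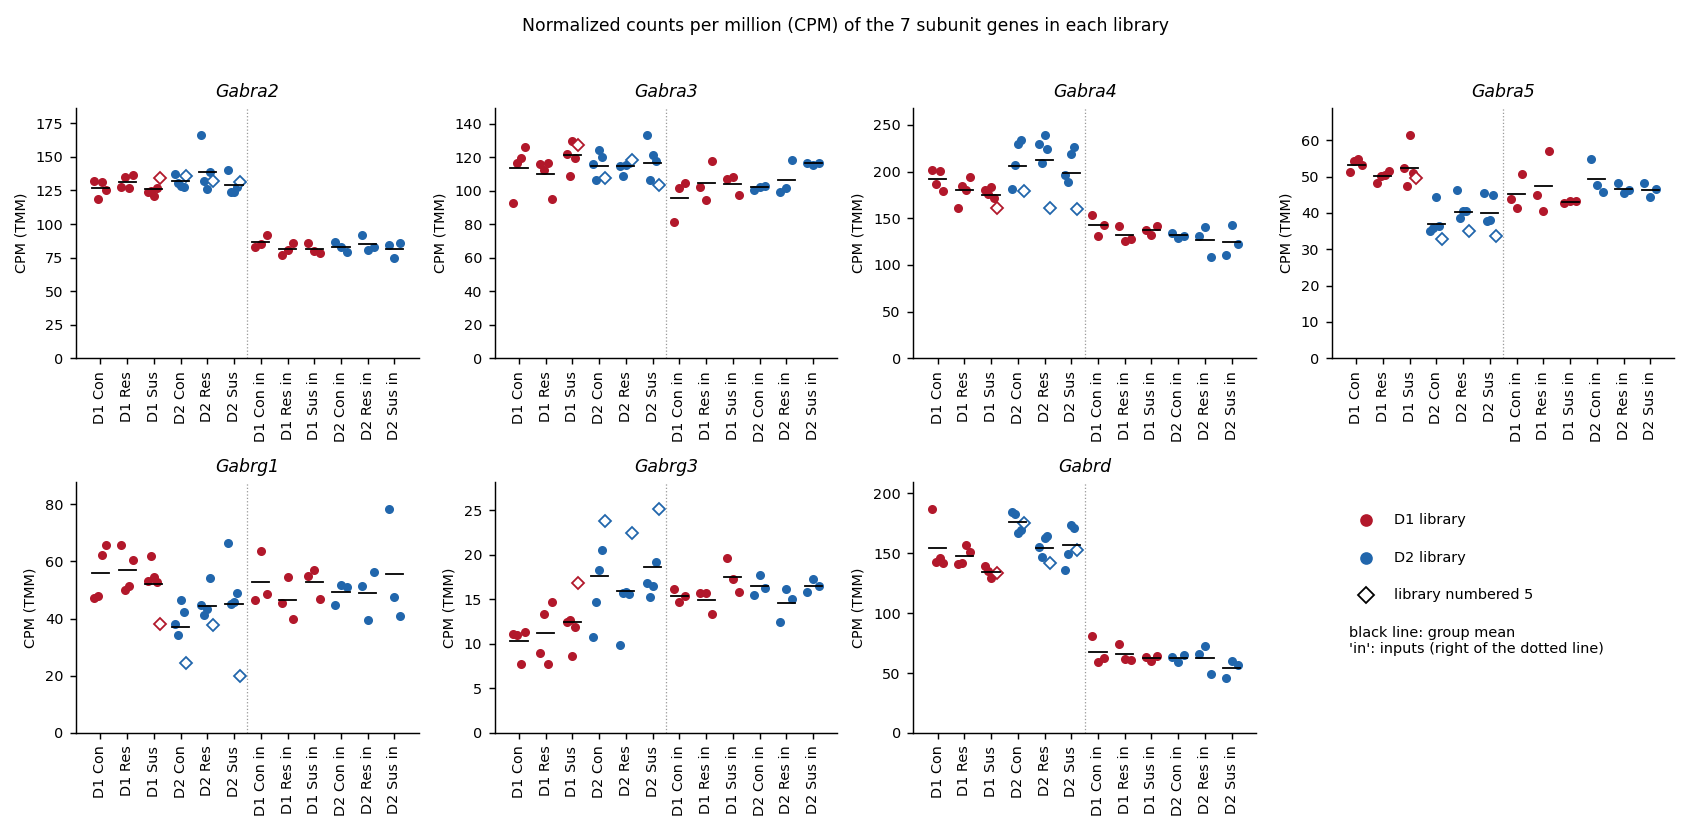
Normalized CPM of the 7 genes in each of the 46 libraries, IPs left and inputs right of the dotted line, with group means as black lines and libraries numbered 5 as open diamonds. *Gabra5* shows D1 IPs at 47.5 to 61.5 above D2 IPs at 32.9 to 46.3, and *Gabrd* shows all IPs above all inputs.

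In the inputs, where RNA of all cells of the punches is pooled, none of the 7 genes passed the test between the lines. By the fold and adjusted p, 0 of 7 genes were called between D1 and D2 inputs, against 0.0202% of all 14820 genes, and 0 of 7 passed an unadjusted p of 0.05. The largest differences were 0.13 for *Gabrd* (95% interval -0.03 to 0.28) and 0.10 for *Gabra4* (95% interval 0.00 to 0.21), on the log2 scale and with their signs opposite to the IPs.

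**Figure D2:**
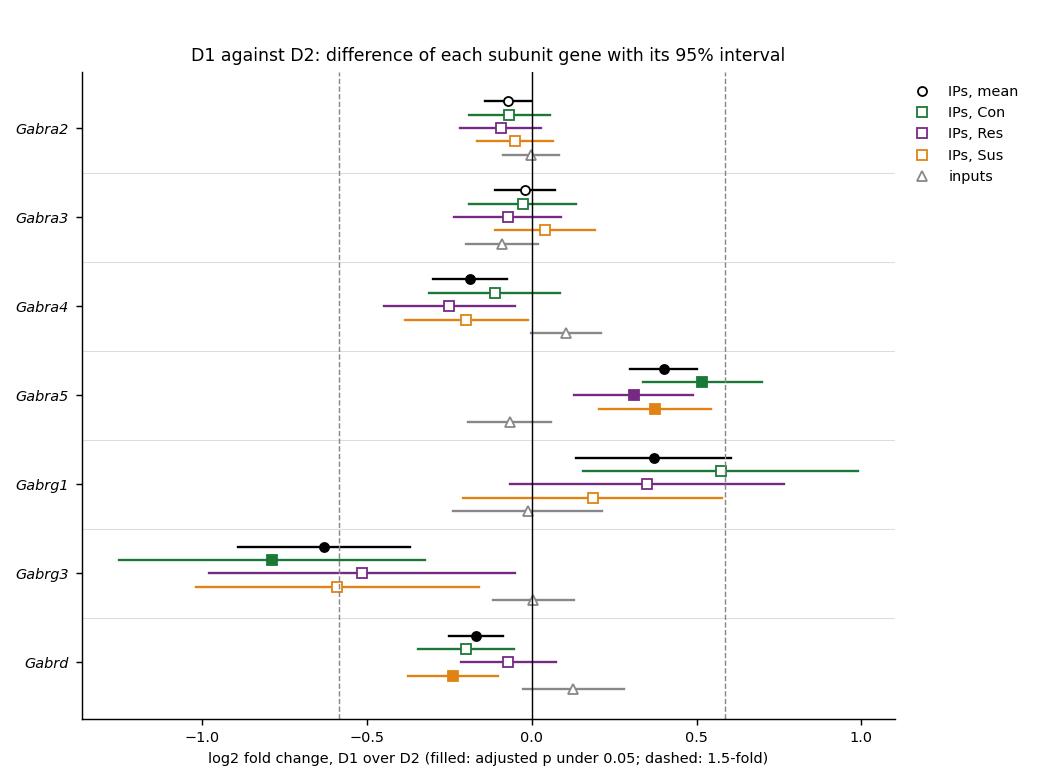
Log2 fold change of D1 over D2 for each gene in the IPs (mean of 3 stress groups, then Con, Res and Sus) and in the inputs, with 95% intervals; filled symbols mark an adjusted p under 0.05 and dashed lines a fold of 1.5. *Gabra5* lies right of 0 in all 4 IP comparisons, from 0.31 to 0.52, while the inputs straddle 0 for every gene.

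The other 12 GABA-A subunit genes in the table gave the setting for these values. *Gabra6*, *Gabrp*, *Gabrr1* and *Gabrr3* were at or near 0 CPM and *Gabrr2* did not exceed 0.874 CPM in any library, and 7 of the 12 were tested in the IPs. None was called by fold between D1 and D2, and 3 were higher in D1 at an adjusted p under 0.05. *Gabrb2*, a beta subunit gene, was one of these, at 0.19 on the log2 scale, and *Gabrb1*, at -0.04, did not pass.

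The genes that anchor, assemble and move the receptor differed little between D1 and D2 IPs. Of 22 tested, 0 were called by fold and 5 were higher and 5 lower at an adjusted p under 0.05, with a median of -0.01. *Gphn*, the gephyrin scaffold of inhibitory synapses, had a log2 difference of -0.15, and *Nsf*, a trafficking ATPase, of 0.19. *Plcl1* and *Plcl2*, related proteins that bind GABA-A receptor subunits and regulate their phosphorylation, were at 0.42 and -0.28.

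Among 9 tested genes of GABA synthesis, release and uptake, 1 was called, *Slc6a11*, the GAT-3 transporter found mainly in astrocytes, at 0.82 (adjusted p = 4.14e-07). 5 of the 9 were lower in D1 at an adjusted p under 0.05, among them *Gad1* (-0.12), which makes GABA, *Slc32a1* (-0.17), which loads it into vesicles, and *Abat* (-0.18), which breaks it down. Beside *Slc6a11*, the 6 astrocyte markers summed to 330 to 555 CPM in D1 IPs and 262 to 525 in D2 IPs, all 6 higher in D1 at an adjusted p under 0.05. The part of astrocyte RNA in this difference was not tested.

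Of 6 genes of the GABA-B receptor, *Gabbr2*, its G protein-coupling subunit, was called higher in D1 at 0.63 (adjusted p = 1.47e-08), while the auxiliary *Kctd8* (-0.37), *Kctd12* (-0.17) and *Kctd16* (-0.31) were lower at an adjusted p under 0.05. Of 5 chloride transport genes, 1 passed without the fold, *Slc12a2*, the importer NKCC1, at 0.20. Of 4 neurosteroid synthesis genes, *Srd5a1* at 0.40 and *Cyp11a1* at 0.54 did.

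Across the 28 IPs, the genes whose log2 CPM followed each gene most closely were found by Pearson's r, as a description of these libraries, which share lines and preparations. Among the 3 closest to each were *Man1c1* for *Gabra5* (r = 0.93), *Sv2c* for *Gabrg3* (0.95), *Cdk17* for *Gabra4* (0.93), *Ngef* for *Gabrd* (0.93) and *B630019K06Rik* for *Gabrg1* (0.92). *Gabra2* and *Gabra3* had looser neighbours, *Ccdc71* at 0.69 and *Sync* at 0.66. Within the 13 D1 and the 15 D2 IPs apart, *Sv2c* stayed at 0.92 and 0.94 with *Gabrg3* and *Ngef* at 0.91 and 0.92 with *Gabrd*, while *Man1c1* fell to 0.56 and 0.76 with *Gabra5*.

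The IPs were next set against the inputs, which asks whether a subunit's mRNA is richer on ribosomes of the tagged neurons than in the whole tissue. Such a ratio moves with the makeup of the punch as well, since in bulk RNA fewer cells of a type and less RNA per cell cannot be told apart. In D1, *Gabra2* and *Gabrd* were called higher in IPs, 2 of 7 where 43.1% of all 15404 genes were called and 13.8% were called higher; *Gabra2* fell under 1.5-fold under a filter of 50 counts per library on average, at 0.54, and with control libraries only, at 0.55. In D2, *Gabra2*, *Gabra4* and *Gabrd* were, 3 of 7 against 43.6%, or 12.8% higher. At an adjusted p alone, 6 of 7 passed in D1 and 5 of 7 in D2, beside 81.9% and 82.7% of all genes. The median of all genes was -0.04 in D1 and -0.08 in D2.

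*Gabrd* was the most enriched of the 7 in both lines. Its inputs lay at 59.6 to 81.3 CPM in D1 (median 62.2, n = 9) and at 46.1 to 72.2 in D2 (median 59.9, n = 9), below every IP of either line, which began at 130. The log2 enrichment was 1.16 (SE 0.06, adjusted p = 8.97e-21) in D1 and 1.44 (SE 0.06, adjusted p = 4.07e-24) in D2, that is 2.23-fold and 2.71-fold.

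*Gabra2* inputs lay at 76.7 to 92.2 CPM in D1 and 74.7 to 92.1 in D2, also below every IP. Its enrichment was 0.63 (SE 0.04, adjusted p = 3.88e-18) in D1 and 0.68 (SE 0.04, adjusted p = 1.13e-19) in D2. *Gabra4* inputs lay at 125 to 154 CPM in D1 and at 109 to 142 in D2, and no IP of the same line reached down to them. Its enrichment was 0.41 (SE 0.06, adjusted p = 1.22e-07) in D1 and 0.69 (SE 0.06, adjusted p = 1.80e-13) in D2. In both lines 3 of 7 genes had IPs and inputs that did not overlap, where 48.3% of all genes in D1 and 44.3% in D2 did so.

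For the remaining 4 genes the IPs and inputs overlapped. *Gabra3* was higher in D1 IPs by 0.18 (adjusted p = 0.00214) and did not pass in D2 at 0.09 (adjusted p = 0.0818), where it did without the libraries numbered 5, at 0.13 (adjusted p = 0.0165). *Gabra5* inputs lay at 40.4 to 57.2 CPM in D1 and at 44.3 to 54.7 in D2, between the IPs of the lines: the D1 IPs were higher by 0.20 (adjusted p = 0.00208) and the D2 IPs lower, at -0.28 (adjusted p = 2.07e-05). The D1 enrichments of *Gabra3* and *Gabra5* fell to 0.09 and 0.12 and missed the threshold under a stricter filter, of 50 counts per library on average.

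*Gabrg3* inputs lay at 13.4 to 19.6 CPM in D1 and at 12.5 to 17.8 in D2. The D1 IPs were lower, at -0.50 (SE 0.13, adjusted p = 0.000435), and the D2 IPs did not pass, at 0.13 (SE 0.12, adjusted p = 0.335), or 0.01 without the libraries numbered 5. *Gabrg1* inputs lay at 39.8 to 63.8 and at 39.6 to 78.2 CPM, and its IPs were at 0.11 (adjusted p = 0.417) in D1 and at -0.28 (adjusted p = 0.0367) in D2. The D2 value of *Gabrg1* lay near the threshold, and the call was lost in 32 of the 46 fits that left out 1 library, those of D1 included. It was -0.14 (adjusted p = 0.181) without the IPs numbered 5, and -0.14 (adjusted p = 0.113) when each IP was paired with the input of its own pool.

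Tested directly, the enrichment differed between the lines for 4 of 7 genes at an adjusted p under 0.05, where 25.5% of all genes did. D1 minus D2 was 0.48 for *Gabra5* (SE 0.08, adjusted p = 1.94e-05), -0.62 for *Gabrg3* (SE 0.17, adjusted p = 0.00674), -0.28 for *Gabra4* (SE 0.09, adjusted p = 0.0141) and -0.28 for *Gabrd* (SE 0.08, adjusted p = 0.00875). With the fold of 1.5, 1 of 7 was called, *Gabrg3*, against 7.59%. That call ended when IP and input were paired by pool, at -0.55 (adjusted p = 0.00166), and without the libraries numbered 5, at -0.53 (adjusted p = 0.00796), since both fell under 1.5-fold. The difference for *Gabrg1*, 0.40, had an adjusted p of 0.104.

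**Figure D3:**
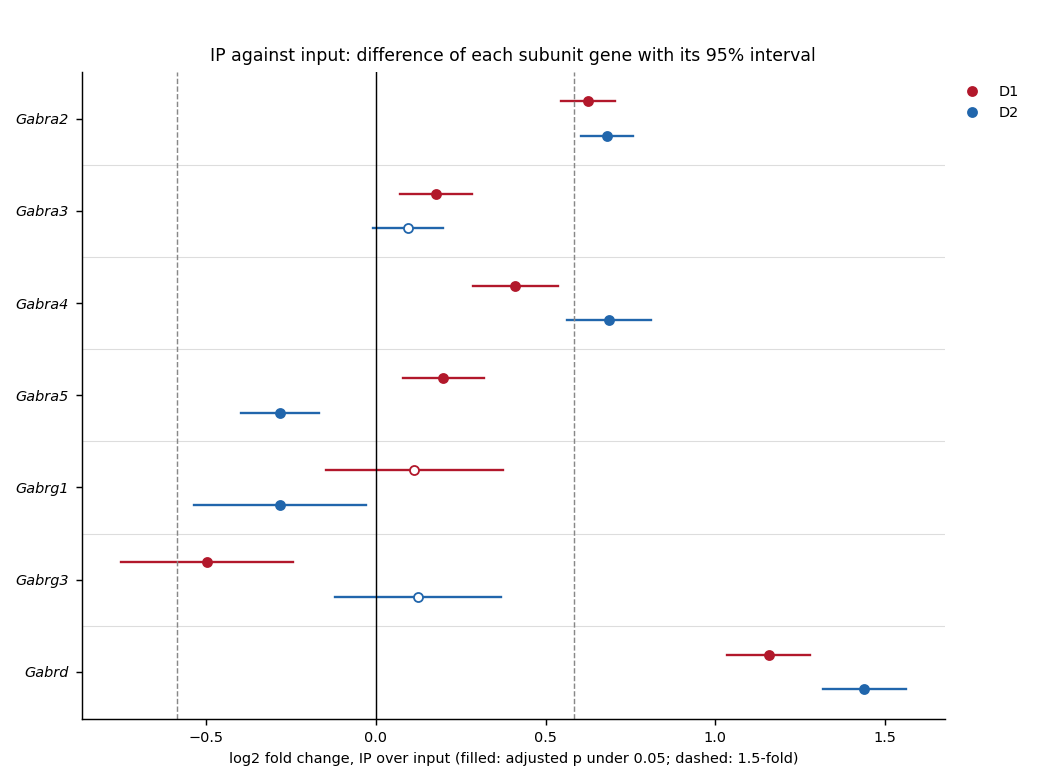
Log2 fold change of IP over input for each gene in D1 and D2, with 95% intervals; filled symbols mark an adjusted p under 0.05 and dashed lines a fold of 1.5. *Gabrd* lies farthest right at 1.16 and 1.44, and *Gabra5* and *Gabrg3* have their D1 and D2 values on opposite sides of 0.

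The genes around the receptor give the same comparison its scale. *Slc12a5*, the neuronal chloride exporter KCC2, was called higher in IPs of both lines, at 1.03 in D1 and 1.01 in D2, and *Slc12a2* lower, at -1.70 and -1.94. *Slc32a1*, the vesicular GABA transporter, was higher by 0.99 and 1.20. Of 22 anchoring, assembly and trafficking genes, 5 were called higher and 2 lower in each line, among them *Lhfpl4*, which anchors the receptor at synapses, at 0.72 and 0.72, and *Plcl2* at 1.00 and 1.28. *Slc6a11* was lower, at -2.15 and -3.02, beside astrocyte markers that summed to 3495 to 4245 CPM in inputs.

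Stress was the next question, that is, whether defeat or its outcome moved a subunit within a line. In no comparison of stress groups did any of the 7 pass an adjusted p of 0.05 by edgeR, where 0 genes of the table passed in all but D1 Res against Con (0.00703%). The rule for stress was an unadjusted p under 0.05, which is the study's own rule for stress groups. By that rule *Gabrd* was lower by edgeR in D1 Sus than in D1 Con, in D2 Sus than in D2 Con and in D2 Res than in D2 Con. The other 6 genes passed by edgeR in no comparison of IPs. Beside that p, an exact two-sided permutation test over the libraries is given. By the exact test *Gabra4* was also lower in D1 Sus than in D1 Con, at -0.14 (exact permutation p = 0.0397). The exact tests were 70 in number, unadjusted, added after seeing the data and run on the 7 genes only. No share of all genes stands beside that p, so it is not read as a result about *Gabra4*. The Sus and Res comparisons within a line share their Con libraries, so they are not independent of each other.

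In D1, *Gabrd* was 154 ± 21.6 CPM (SD, n = 4) in Con, 148 ± 7.42 (n = 4) in Res and 134 ± 3.58 (n = 5) in Sus. All 5 Sus libraries, at 130 to 139, lay below all 4 Con libraries, at 142 to 187, and 2.31% of all genes did not overlap between these groups. The log2 difference of Sus from Con was -0.21 (SE 0.07, edgeR p = 0.00691, adjusted p = 0.846, exact permutation p = 0.00794, the smallest these groups allow), 1 of 7 genes by the unadjusted rule where 5.34% of all genes passed. It rested in part on D1 Con 1: without it the groups still did not overlap, but the difference was -0.10 (edgeR p = 0.135, exact permutation p = 0.0179). Res against Con was -0.06 (adjusted p = 1), with 0 of 7 passing against 2.11%. Sus against Res was -0.14 (95% interval -0.29 to 0.00) and did not pass by edgeR, with 0 of 7 against 4.23%. These groups did not overlap (exact permutation p = 0.00794), as in 1.99% of all genes.

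D1 Con 1 also stood apart in marker genes. Its D2-MSN markers summed to 3471 CPM, with 2370 to 2565 in the other D1 Con libraries, and its astrocyte markers to 330, with 418 to 471 in the others. The cortical excitatory marker *Slc17a7* was at 317 CPM in D1 Con 1, with 598 to 883 in the other D1 Con libraries and 513 to 1132 in D1 Sus. All 4 D2-MSN markers were lower in D1 Sus than in D1 Con at an unadjusted p under 0.05, and the astrocyte sums were 473 to 555 in D1 Sus and 330 to 471 in D1 Con. The part of these cells in the *Gabrd* difference was not tested.

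In D2, *Gabrd* was 176 ± 7.57 CPM (n = 5) in Con, 154 ± 9.82 (n = 5) in Res and 157 ± 15.4 (n = 5) in Sus. All Res libraries, at 142 to 164, lay below all Con libraries, at 167 to 184, and 0.457% of all genes did not overlap. Res was lower, at -0.19 (SE 0.07, edgeR p = 0.00769, adjusted p = 1, exact permutation p = 0.00794, the smallest these groups allow), 1 of 7 genes where 3.02% of all genes passed, and no single library left out ended that call. Sus ranged from 136 to 173 and overlapped Con, with a difference of -0.17 (SE 0.07, edgeR p = 0.0178, adjusted p = 0.999, exact permutation p = 0.0556), 1 of 7 where 3.68% passed. Without D2 Sus 1, the lowest library, it was -0.12 (edgeR p = 0.0767, exact permutation p = 0.0873).

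D2 Sus 1 also stood apart in *Slc17a7*, at 13.9 CPM with 118 to 245 in the other D2 Sus IPs, and in *Slc17a6*, at 24.2 with 4.63 to 11.7. By the same unadjusted rule 1 of 6 astrocyte markers (*Gjb6*, 0.68), 1 of 6 oligodendrocyte and precursor markers (*Pdgfra*, 0.56) and 1 of 4 endothelial markers (*Flt1*, 0.49) were higher in D2 Res than in Con. In D2 Sus against Con these were *Gjb6* (0.64) and *Pdgfra* (0.53), and 1 of 5 parvalbumin interneuron markers, *Pvalb*, was lower (-0.59). The astrocyte sums overlapped, at 276 to 405 CPM in D2 Con, 292 to 416 in Res and 262 to 525 in Sus. The part of these cells in the *Gabrd* differences of D2 was not tested.

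The D1 and D2 effects of stress on *Gabrd* were not told apart: the difference between the lines was -0.04 (95% interval -0.24 to 0.16) for Sus against Con and 0.13 (95% interval -0.08 to 0.33) for Res against Con. No gene of the 7 passed in these tests of the difference between lines, where 1.82% of all genes did for Sus against Con, 2.36% for Res against Con and 2.03% for Sus against Res. In D2 Sus against Res 0 of 7 passed, against 1.66%.

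Among the genes that did not move by this rule, *Gabra5* was 53.3 ± 1.62 CPM in D1 Con, 50.1 ± 1.38 in Res and 52.4 ± 5.40 in Sus, and 36.9 ± 4.45, 40.1 ± 4.13 and 40.0 ± 5.13 in D2. *Gabrg1* in D2 was 37.1 ± 8.47 CPM in Con, 44.3 ± 6.16 in Res and 45.2 ± 16.6 in Sus, with the libraries numbered 5 lowest in each. Its Sus against Con difference in D2 was 0.29 (95% interval -0.11 to 0.68). Without the libraries numbered 5 it was 0.35 and passed the unadjusted rule (edgeR p = 0.011, exact permutation p = 0.0857). The 95% intervals for *Gabra2* and *Gabra3* within a line reached no farther than 0.30 on the log2 scale from 0, and those for *Gabrg3* up to 0.74.

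In the inputs the stress groups were compared over both lines, 6 libraries each. *Gabra3* was higher in Sus than in Con inputs, by 0.16 (SE 0.06, edgeR p = 0.0215, adjusted p = 0.979, exact permutation p = 0.025), 1 of 7 where 4.47% of all genes passed. Its D1 inputs were at 81.2, 102 and 105 CPM in Con and at 107, 108 and 97.8 in Sus, and its D2 inputs at 101, 103 and 103 in Con and at 117, 116 and 117 in Sus. The D2 inputs did not overlap and the D1 inputs did, and without the lowest of them, D1 Con input 1, the edgeR p was 0.066 and the exact permutation p 0.05.

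*Gabrg3* was higher in Sus than in Res inputs, by 0.21 (SE 0.07, edgeR p = 0.00837, adjusted p = 0.901, exact permutation p = 0.02), 1 of 7 where 5.54% passed. Its D1 inputs were at 15.7, 15.7 and 13.4 CPM in Res and 19.6, 17.2 and 15.8 in Sus, and its D2 inputs at 12.5, 16.2 and 15.1 in Res and 15.8, 17.3 and 16.5 in Sus. Every D1 Sus input lay above every D1 Res input, while the D2 groups overlapped. In Res against Con inputs 0 of 7 passed, against 3.23%. *Gabrd*, lower in several IP comparisons, was at -0.15 (95% interval -0.34 to 0.03) in Sus against Con inputs.

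Around the receptor, few genes passed the unadjusted rule for stress. In D1 Sus against Con, *Plcl1* (0.29) and *Slc6a11* (0.49) were higher, as was *Gabbr2* (0.29), and *Lhfpl4*, which anchors GABA-A receptors at synapses, was lower (-0.10). None of the other 7 tested GABA-A subunit genes passed in any of the 6 comparisons of stress groups within a line.

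The last comparison set the 4 libraries labelled Sirt1-KO against the 4 D1 Con libraries, to ask whether loss of *Sirt1*, a deacetylase, in D1 neurons moved these genes. *Sirt1* itself was at 13.1, 16.6, 14.8 and 14.4 CPM in D1 Con and at 15.2, 16.2, 13.2 and 10.2 in the libraries labelled Sirt1-KO. The groups overlapped and the log2 difference was -0.10 (SE 0.13, adjusted p = 0.768), so the gene total did not mark the label. Gene totals do not resolve the deleted exon, and genotype and preparation cannot be told apart here. These CPM come from the table that holds both groups and are on another scale than the values above.

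*Gabra2* was higher in the libraries labelled Sirt1-KO. It was at 125, 112, 124 and 119 CPM in D1 Con and at 149, 165, 175 and 184 in the other group, which did not overlap, as 9.55% of all genes did not. The log2 difference was 0.48 (SE 0.07, 95% interval 0.33 to 0.63, adjusted p = 0.00887, exact permutation p = 0.0286, the smallest these groups allow), which is 1.40-fold. At an adjusted p under 0.05 it was 1 of 7 where 1.66% of all 13626 genes passed, and by the fold of 1.5 0 of 7 were called, against 0.749%. Leaving out any 1 library kept the adjusted p between 0.00451 and 0.035.

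*Gabra4* did not overlap between the groups either, at 191, 177, 190 and 171 CPM in D1 Con and 167, 169, 157 and 149 in the libraries labelled Sirt1-KO, but its difference of -0.18 (SE 0.06, exact permutation p = 0.0286) had an adjusted p of 0.145 by edgeR. *Gabrd* was at 177, 135, 138 and 135 CPM and at 117, 113, 117 and 141, a difference of -0.26 (SE 0.10, adjusted p = 0.187). The fourth value of the latter group, Sirt1-KO 5, was its highest and lay within the D1 Con range. Without it the difference was -0.35 (adjusted p = 0.0366). No other library left out brought *Gabrd* past the threshold. Over all fits that left out 1 library, the difference ran from -0.35 to -0.16 and the edgeR adjusted p from 0.0366 to 0.401. D1 Con 1, at 177 CPM, stood apart in the D1 Con group. *Gabrg1* was at -0.30 (adjusted p = 0.299), *Gabra3* at 0.15 (adjusted p = 0.444), *Gabra5* at 0.10 (adjusted p = 0.519) and *Gabrg3* at 0.01 (95% interval -0.37 to 0.39).

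**Figure D4:**
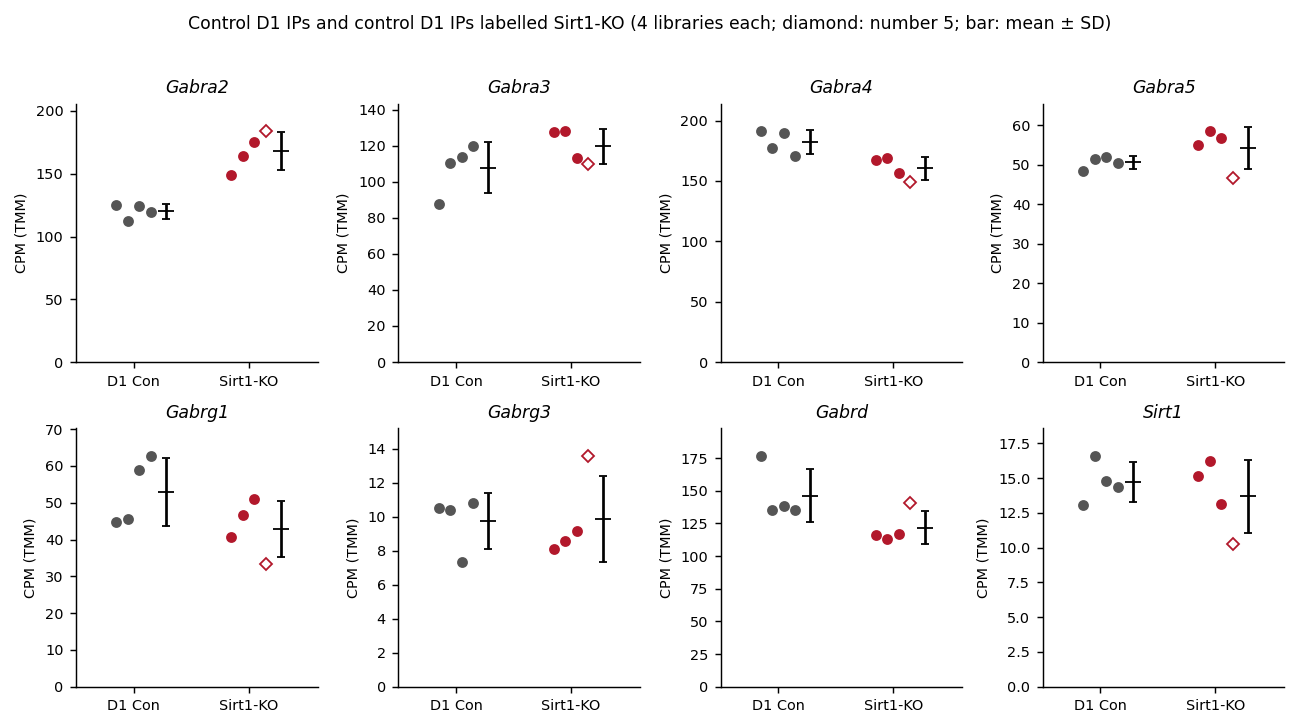
Normalized CPM of the 7 genes and of *Sirt1* in 4 D1 Con IPs (grey) and 4 D1 IPs labelled Sirt1-KO (red; the open diamond is the library numbered 5), with mean ± SD beside the points. *Gabra2* lies at 112 to 125 in D1 Con and at 149 to 184 in the libraries labelled Sirt1-KO, while *Sirt1* overlaps between the groups.

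Beside these values, the markers that passed an adjusted p of 0.05 were *Pdyn* of D1-MSNs (-0.37), *Slc5a7* of cholinergic interneurons (-1.11), and *Chodl* (-1.16), *Nos1* (0.56) and *Npy* (0.46) of SST and NPY interneurons. No cortical or astrocyte marker passed. The cortical excitatory markers summed to 361 to 995 CPM in D1 Con and 814 to 1519 in the libraries labelled Sirt1-KO, the astrocyte markers to 313 to 446 and 456 to 572, and the D1-MSN markers to 1192 to 1469 and 896 to 1122. The part of these cells in the *Gabra2* difference was not tested. None of the other 7 tested GABA-A subunit genes passed an adjusted p of 0.05, with *Gabrq* nearest at -1.06 (adjusted p = 0.0585). Of the surrounding genes, *Kctd12* (-0.34, adjusted p = 0.0206) and *Kctd8* (-0.45, adjusted p = 0.0356) of the GABA-B receptor were lower.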

How the data were processed

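Poly-A RNA of HA immunoprecipitates and inputs from the NAc was sequenced after a stranded library kit. According to the submitters' processing notes, reads were trimmed with cutadapt, checked with FastQC, aligned to mm10 with STAR and counted with HTSeq; the annotation, strand setting and versions are not given in the sources used here. The deposited values are raw counts per gene symbol, in a table of 46 libraries and a table of D1 Con with Sirt1-KO libraries, whose 4 D1 Con columns were identical to the former. The 5 entries that name no gene held 18.0 to 28.3% of all counts in IPs, 35.9 to 40.0% in inputs and 19.2 to 23.8% in Sirt1-KO libraries. They were left out, as were 2 columns that match no described sample.

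Counts were normalized by TMM and tested with edgeR 4.0.16 (R 4.3.3) by quasi-likelihood after filterByExpr (minimum count 10, minimum total 15), with Benjamini-Hochberg adjustment over all genes of a model: 28 IPs (6 group means, 14224 genes), IPs and inputs (12 group means, 15404 genes), 18 inputs (line and stress, 14820 genes) and the Sirt1 table (13626 genes). DESeq2 1.42.0 was an alternative, and 70 exact permutation tests of mean log2 CPM (inputs permuted within line), unadjusted, were added after seeing the data. D1 against D2, IP against input and Sirt1-KO were called at a fold over 1.5 and adjusted p under 0.05, stress at an unadjusted p under 0.05. The models were tested on simulated counts. Sirt1-KO libraries held 22174187 to 31785984 counts, and the number of counts limits precision most for *Gabrg3*.

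IP and input of the same number come from 1 homogenate per the labels; the correlation of their deviations from the group means was -0.19 to 0.51 over 18 pairs (median 0.03), and a fit with the pool as a block was run. Numbers shared between groups mark no common animals. No label ties libraries to preparation batches, so p-values measure the spread between pools of 2 mice together with any batch that pools share. Pairs of IPs numbered 5 had a median correlation of deviations of 0.17, and those of the other numbers medians of 0.03 to 0.09. The IPs numbered 5 are D1 Sus 5, D2 Con 5, D2 Res 5 and D2 Sus 5, so they are not balanced between the lines. Whether they share a batch was not tested. In 70 pairs of replicates none agreed within sampling noise (chi-square per gene 3.60 to 104). Named genes were all 7, the other 12 GABA-A subunit genes (some of them not reported here), and up to 4 genes per pathway list in order of p, with additions named for their known role; the members and lists were chosen with earlier results of these data known.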

Additional observations from a re-analysis of the deposited data

Results flagged for a closer look

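In groups of 4 or 5 libraries, a sample was marked when its gap to the nearest of the others was large against the range of its group; 3 of 49 groups tested had such a library, and chance marks about 1 in 20. *Gabrg3* in D1 Con 3 was at 7.73 CPM, with 11.0 to 11.3 in the other D1 Con IPs. *Gabrd* in D1 Con 1 was at 187 CPM, with 142 to 146 in the others, and the D1 Sus against Con difference of *Gabrd* rested in part on it. *Gabrd* in the library labelled Sirt1-KO 5 was at 141 CPM, with 113 to 117 in the other 3.

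The enrichment of IP over input differed between D1 and D2, by a test of the difference itself, for 4 genes. On the log2 scale D1 minus D2 was -0.28 for *Gabra4*, 0.48 for *Gabra5*, -0.62 for *Gabrg3* and -0.28 for *Gabrd*. In the inputs alone none of these genes passed the test between D1 and D2. For *Gabrd* and *Gabra4*, though, the input differences had signs opposite to the IPs and so add to their difference in enrichment.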

How the results depend on the processing

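Of 1373 values of 36 results for single genes under the alternatives, 1327 kept their direction and their side of the threshold, 42 lost it, 4 passed it and 0 reversed.

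Counts of genes called among the 7 moved as follows. Where no share of all genes stands beside a count, the count is not read as a result about the 7. With an adjusted p and no limit on the fold they were 5 in place of 1 for D1 against D2 IPs, 2 for Con, 1 for Res, 2 for Sus, 6 in place of 2 for D1 IPs against inputs, 5 in place of 3 for D2, 4 in place of 1 for the difference between them and 1 in place of 0 for Sirt1-KO. With an adjusted in place of an unadjusted p the stress counts of 1 (D1 Sus against Con, D2 Sus against Con, D2 Res against Con, and the inputs' Sus against Con and against Res) became 0. D1 IPs against inputs gave 1, without *Gabra2*, with genes of a mean of at least 50 counts, and 1 with controls only. With only the libraries of the groups compared, D1 Sus against Con gave 2 and D1 Sus against Res 1.

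Leaving out the libraries numbered 5 was an alternative chosen after seeing the data. It gave 0 for D1 against D2 IPs (7.35% of all genes), 0 for the difference in IP against input (7.42%) and 2 for D2 Sus against Con (3.17%). With the replicate number as a block these were 0 and 0 for the first and second, 2 for D2 Res against Con and 1 for D2 Sus against Res. The block also brought *Gabrd* (-0.37, adjusted p = 0.00368) and *Gabrg1* (-0.26, adjusted p = 0.0269) past the threshold in Sirt1-KO against D1 Con. Between IPs that share a number, correlations of deviations were 0.08 to 0.25 in 6 pairs numbered 5 and -0.16 to 0.22 for the other numbers, so not every pair deviated together and the numbers were not taken to pair the samples; they were -0.34 to 0.39 between inputs and -0.01 to 0.08 between Sirt1-KO and D1 Con.

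Leaving out each library in turn gave 0 to 3 for D1 Con against D2 Con and for D2 Sus against Con, 0 to 2 for Sus against Con inputs, and 1 to 2 for D2 Res against Con and for Sus against Res inputs. It gave 0 to 1 for D1 against D2 over all groups, Res and Sus, for D1 Sus against Con, for Sus against Res in either line, for the difference in IP against input, and for each of the 3 differences between D1 and D2 in stress. D1 against D2 lost *Gabrg3* without D1 Res 3, D2 Res 5 or D2 Sus 5, and Con lost it without D1 Con 3 or D2 Con 5. At these depths *Gabrg3*, with 201 to 585 counts, was the least precise of the genes.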
